A study of Mus musculus with 2 samples.

Results

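The genes of the cytosolic ribosomal proteins were examined for nearby GATA4 peaks in mouse skeletal muscle myoblasts. They were taken as the protein coding genes of a RefSeq table of mouse build GRCm38 whose symbol starts with Rpl, Rplp or Rps, followed by a number and at most 1 closing letter a, x, y or l. There were 80 of these among 21887 protein coding genes, with 47 large subunit genes, 30 small subunit genes and the 3 genes of the ribosomal stalk. A gene was counted as having a peak when the centre of a peak lay within 1 kb, or within 10 kb, of either end of the gene. The rule read symbols and positions only, and no measured value entered it. The set was nevertheless chosen with earlier results of these data known.

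The data came from chromatin immunoprecipitation followed by sequencing (ChIP-seq) of cultured myoblasts, the proliferating precursors of skeletal muscle. Per the labels, they were grown out from satellite cells of a mouse stock named STOCK Myf5tm1Pas/J, which both libraries shared, on a collagen coat in growth medium with serum and basic fibroblast growth factor. One library was precipitated with a mixture of 3 GATA4 antibodies and the other with control IgG, with 1 library each and no replicate. The deposited list held 17539 peaks of the GATA4 library, each with a MACS score, the authors' own value, which ranks peaks within the list only. Read counts are not analysed here. The depth is therefore unknown, no IgG level can be set beside a peak, and no test between libraries was made. RNA was not measured, so that the cells were myoblasts rests on the labels.

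Each cytosolic ribosome joins a small subunit, which decodes the messenger RNA, to a large subunit, which forms the peptide bonds. Ribosomal protein genes are short, are transcribed at high rates in growing cells, and give messenger RNAs that start with a pyrimidine tract through which mTOR and LARP1 control their translation. Many carry small nucleolar RNAs (snoRNAs) in their introns. GATA4 is a zinc finger transcription factor best known from heart, gut and gonad. It recognises the letters GATA, often within a longer motif.

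Many of the peaks within 1 kb of a ribosomal protein gene lay at its start, and others at its far end or at an end of unknown strand. The sequences just before the start are shown first for 7 genes whose start lay inside a peak. Each stretch runs 5′ to 3′ in the direction of transcription, ends at the base before the RefSeq start of transcription in the promoter table (build GRCm38.p6), and left out any base inside an annotated gene. For Rps12, whose annotated gene begins ahead of that start, this left out the 174 bases next to the start, and the 76 bases printed lie before the gene. Capitals mark GATA on the printed strand or TATC, its reverse complement.
Rps12, chr10:23787384-23787459, minus strand: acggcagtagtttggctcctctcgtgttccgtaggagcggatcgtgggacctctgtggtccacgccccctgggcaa
Rps15, chr10:80292181-80292430, plus strand: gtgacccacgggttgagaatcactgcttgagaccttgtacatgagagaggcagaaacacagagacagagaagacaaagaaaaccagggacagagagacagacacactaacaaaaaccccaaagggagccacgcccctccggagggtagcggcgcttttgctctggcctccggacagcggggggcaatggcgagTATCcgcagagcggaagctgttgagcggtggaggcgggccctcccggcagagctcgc
Rps26, chr10:128626507-128626756, minus strand: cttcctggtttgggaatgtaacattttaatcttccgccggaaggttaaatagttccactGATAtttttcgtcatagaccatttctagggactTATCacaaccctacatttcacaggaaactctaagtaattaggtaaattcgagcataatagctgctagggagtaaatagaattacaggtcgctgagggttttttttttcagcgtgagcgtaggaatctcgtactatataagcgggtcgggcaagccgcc
Rpl24, chr16:55966025-55966274, plus strand: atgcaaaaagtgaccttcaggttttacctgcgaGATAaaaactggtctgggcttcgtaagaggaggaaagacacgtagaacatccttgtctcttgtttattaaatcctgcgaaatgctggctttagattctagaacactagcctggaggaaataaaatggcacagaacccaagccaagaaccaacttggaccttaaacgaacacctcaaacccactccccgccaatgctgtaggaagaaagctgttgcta
Rpl23, chr11:97782440-97782689, minus strand: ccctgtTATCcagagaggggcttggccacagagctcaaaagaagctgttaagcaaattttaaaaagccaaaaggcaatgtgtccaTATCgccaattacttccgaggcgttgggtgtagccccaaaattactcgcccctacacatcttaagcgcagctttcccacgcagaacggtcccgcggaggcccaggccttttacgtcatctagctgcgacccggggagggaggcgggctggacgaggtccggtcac
Rpl10a, chr17:28328221-28328470, plus strand: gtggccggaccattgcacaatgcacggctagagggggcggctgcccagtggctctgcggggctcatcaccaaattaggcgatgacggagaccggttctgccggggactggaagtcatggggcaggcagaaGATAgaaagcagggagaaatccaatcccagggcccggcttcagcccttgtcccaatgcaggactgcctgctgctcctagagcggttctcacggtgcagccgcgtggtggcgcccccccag
Rpl27, chr11:101441995-101442244, plus strand: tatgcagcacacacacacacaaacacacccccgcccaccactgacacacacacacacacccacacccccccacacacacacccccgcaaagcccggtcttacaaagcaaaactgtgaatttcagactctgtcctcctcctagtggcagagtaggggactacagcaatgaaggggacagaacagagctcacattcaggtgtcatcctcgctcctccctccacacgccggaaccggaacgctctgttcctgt

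GATA4 peaks were found at 19 of the 80 ribosomal protein genes within 1 kb of an end, or 23.8% (exact Clopper-Pearson 95% interval 14.9% to 34.6%). Among all protein coding genes the share was 9.47%. Within 10 kb there were 32 genes, or 40.0% (29.2% to 51.6%), beside 26.2% of all protein coding genes. That count fell to 20 of 80 when a peak was given only to the gene with the nearest end. This share lay 5.62 percentage points above the 19.4% of other genes. With only peaks above the median score the count was 13 of 80, or 16.2%, beside 12.8% of other genes. The intervals cover counting error only, and genes are not biological replicates. Most of the genes had no peak close by, since 48 had none within 10 kb. Within 50 kb, 56 of the 80 had a peak, or 70.0%, beside 56.0%. Counted from starts of transcription alone, which were known for 60 of the genes, 12 had a peak within 1 kb, or 20.0%, beside 8.66% of all protein coding genes with a known start. The median distance from a gene end to the nearest peak centre was 24.5 kb for the ribosomal protein genes and 37.6 kb for the other protein coding genes.

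**Figure D1:**
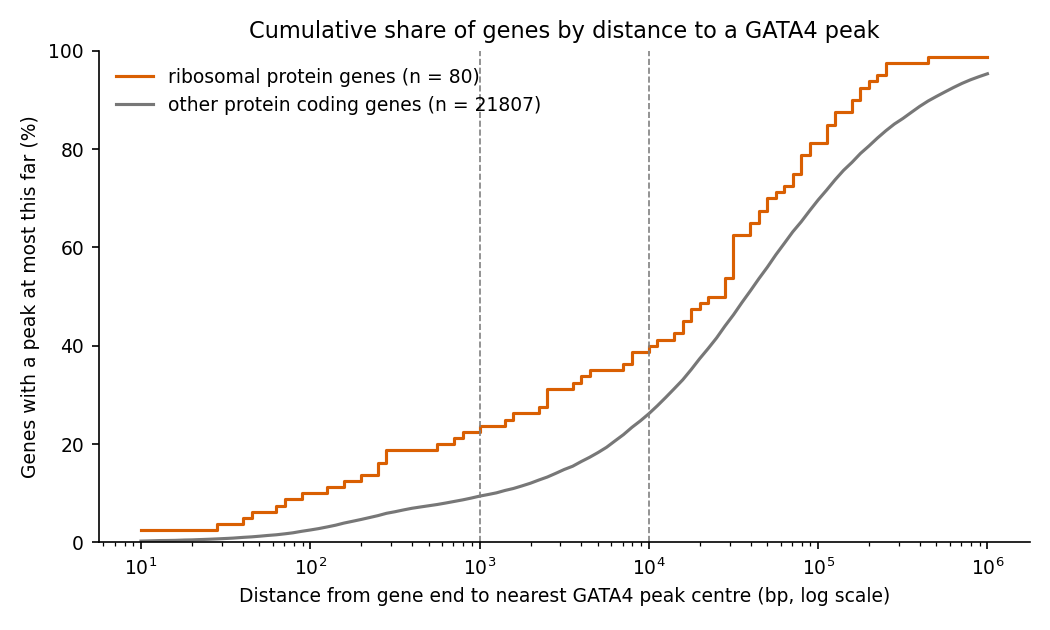
Cumulative share of genes (vertical axis, percent) whose nearest GATA4 peak centre lay at most the given distance from a gene end (horizontal axis, bp, log scale), for the 80 ribosomal protein genes and the 21807 other protein coding genes. Dashed lines mark 1 kb and 10 kb, where the ribosomal protein genes reached 23.8% and 40.0%.

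Both subunits were represented. Of the 30 small subunit genes, 10 had a peak within 1 kb, or 33.3% (17.3% to 52.8%). Within 10 kb, 15 of them had one, or 50% (31.3% to 68.7%). Of the 47 large subunit genes, 9 had a peak within 1 kb, or 19.1% (9.15% to 33.3%). Within 10 kb, 17 of them had one, or 36.2% (22.7% to 51.5%). The shares of all protein coding genes were 9.47% and 26.2%. The intervals of the subunits overlap widely. None of the stalk genes Rplp0, Rplp1 and Rplp2, whose products bind the elongation factors, had a peak within 10 kb, and their nearest peaks lay at 46.9, 26.6 and 14.8 kb.

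Of the 19 genes, 4 small subunit genes had the peak within 1 kb of the gene end where transcription starts, with scores that ran from below to well above the median score of the list, which was 99.3. The strongest peak lay at Rps12, on chromosome 10 from 23785183 to 23787383, and ran from 23786769 to 23788076 with a score of 205. It was 1308 bp wide, its centre was 39 bp from the gene end and 213 bp upstream of the start in the promoter table, and 91.6% of all peaks scored no higher. Rps12 also had further peaks within 10 kb, at 3.24 kb (score 86.1) and 9.55 kb (score 71.6).
Rps15, whose product is needed for export of the small subunit precursor from the nucleus, had a peak of the same width, 1308 bp, with a score of 131. Its centre lay 3 bp from the start, the shortest distance of all 80 genes. Rps28 on chromosome 17 had a peak 607 bp wide with a score of 110, centred 10 bp upstream of its start. That peak also lay at an end of Ndufa7, a gene of mitochondrial complex I, so it cannot be given to either gene. Rps26, whose product lines the exit channel for messenger RNA, had a peak centred 261 bp upstream with a score of 96.3.

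Among the 19 genes, 6 large subunit genes also had the peak within 1 kb of the end where transcription starts, all with scores below the median of the list. Rpl24, mutated in the mouse line Belly spot and tail, had the highest of them, 97.04, in the narrowest peak near any of the 19 genes (441 bp, centred 27 bp upstream). That score is shared by 659 peaks of the list. Rpl27 followed with 86.8 at 85 bp downstream, and Rpl10a, whose product forms the stalk on the other side of the large subunit, had 77.4 at 244 bp downstream. Rpl31 had a score of 72.8 at 122 bp upstream. Rpl9 had 72.3 at 146 bp upstream, where the end of Lias, a lipoic acid synthase gene, was nearer to the peak centre. Rpl23, whose product also binds the p53 regulator MDM2, had 66.2 at 58 bp downstream.
Across these 10 genes of both subunits (Rps27l and Rpl18, with a start inside the gene, are described with the wider window) the start itself lay inside the peak in every case. The centre was upstream in 6 and downstream in 4, by 3 to 261 bp, and the median score was 91.5.

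**Figure D2:**
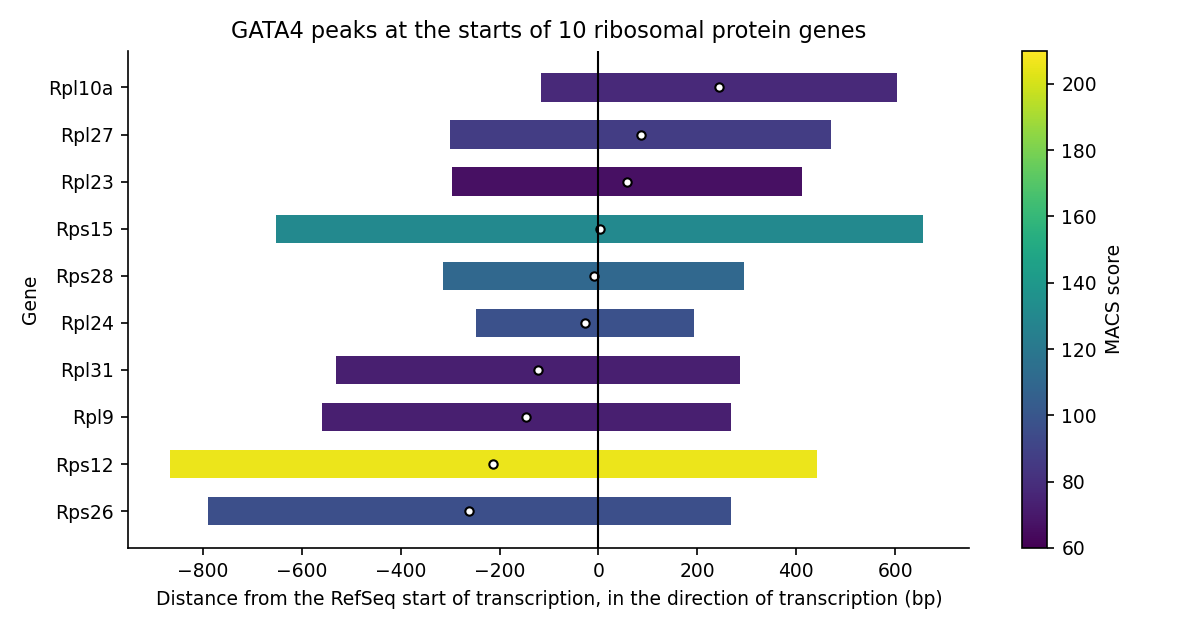
GATA4 peaks at the starts of 10 ribosomal protein genes, drawn in the direction of transcription with the RefSeq start at 0 (horizontal axis, bp). Each bar is 1 peak over its full width, the white point is its centre and the colour is the MACS score. All 10 bars cross the start, and Rps12 has the highest score, 205.

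In 4 further genes the peak lay at the far end of the gene instead. Rps15a had the second highest score of the 19 genes, 149, in a peak inside the gene 236 bp from its far end, with another at 3.23 kb that scored 140. Rps9 had a peak 548 bp past its far end (score 78.0), and Rps4x had one 663 bp past it (score 64.0, the lowest of the 19). Rps4x is 1 of 4 members on chromosome X, where only 1.76% of all protein coding genes had a peak within 1 kb, and the pseudogene Gm9103 lies within 1 kb of the same peak. Rpl13a, whose product also takes part in silencing inflammatory messenger RNAs, was counted only through a peak 920 bp past its far end. This peak scored 111. In all, the 19 genes rested on 18 distinct peaks.

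For the remaining 5 genes the promoter table held no strand, and the peak is given by coordinate. All 5 had it at the higher-coordinate end. Rpl3, encoding a protein close to the peptidyl transferase centre, had a score of 119, centred 44 bp outside the gene on chromosome 15 (80083121 to 80083779). Rps29 had a peak 66 bp from the end that scored 79.7 and also lay at an end of Rn7s1, an RNA gene of the signal recognition particle class. Rps27a, which encodes a fusion of ubiquitin and a ribosomal protein, had a peak inside the gene, 190 bp from its end, that scored 66.5, and an end of Clhc1 was nearer to its centre. Rpl36 had a peak with a score of 65.2 inside the gene, 726 bp from the end, with an end of Lonp1 within 1 kb of it as well.

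Most peaks at ribosomal protein genes sat within 300 bp of the gene end, and their median score was close to that at other genes. Of the 19 genes, 8 (42.1%) had the peak centre within 100 bp of the end and 15 (78.9%) within 300 bp. Among the 2053 other protein coding genes with a peak within 1 kb these shares were 26.9% and 64.7%. The median distance was 146 bp in the former and 201 bp in the latter. The best score within 1 kb had a median of 86.8 over the 19 genes, with a range from 64.0 to 205, and of 84.1 over the others. Of the 19, 7 scored above the median of the list, or 8.75% of the 80 genes, beside 3.14% of all protein coding genes. The median width was 756 bp beside 766 bp.

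**Figure D3:**
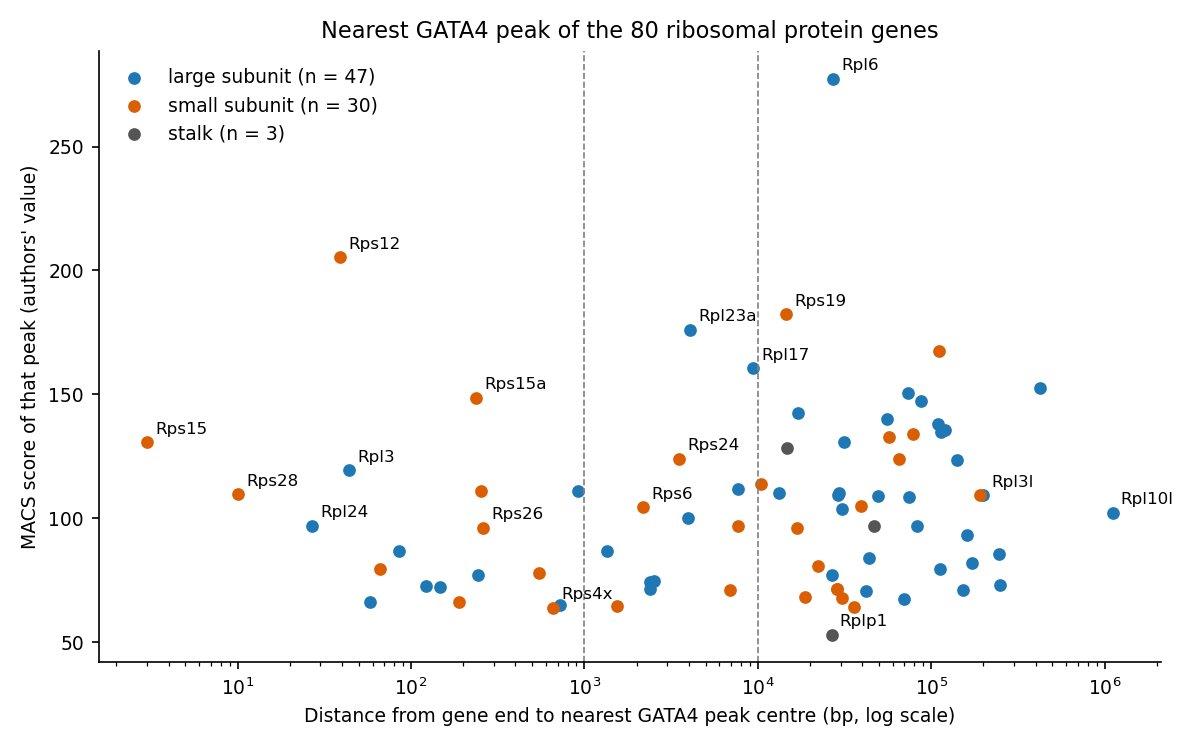
Distance from a gene end to the nearest GATA4 peak centre (horizontal axis, bp, log scale) and the MACS score of that peak (vertical axis) for each of the 80 ribosomal protein genes, coloured by subunit. Dashed lines mark 1 kb and 10 kb. Rps12 stands highest among the 19 genes left of 1 kb, and the highest score of all, 277, belongs to a peak 27.1 kb from Rpl6.

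Between 1 and 10 kb lay the nearest peaks of 13 more genes, and for 8 of these another protein coding gene had an end nearer to the peak. The genes just outside 1 kb were Rpl22 at 1.34 kb (score 86.8), Rps27l at 1.54 kb (64.7), Rps6 at 2.18 kb (105), Rpl27a at 2.38 kb (74.3) and Rpl18 at 2.40 kb (71.6). In Rps27l and Rpl18 the peak nevertheless lay 73 and 204 bp from a start given in the promoter table, which differs there from the end of the gene. An end of Sphk2 also lay within 1 kb of the Rpl18 peak, nearer to its centre than either end of Rpl18. The score of the Rpl18 peak is shared by 555 peaks of the list. Rps6, whose phosphorylation is the classical readout of mTOR activity, had its peak past its far end, nearer to Dennd4c. The highest score within 10 kb among these 13 belonged to Rpl23a, encoding a protein at the exit of the peptide tunnel, with 176 at 4.08 kb, nearer to an end of Tlcd1. The peak of Rpl17 scored 161 and lay at 9.44 kb, the farthest inside 10 kb. Rps24 (124 at 3.53 kb), Rpl7a (112 at 7.65 kb), Rpl15 (100.2 at 3.94 kb), Rps25 (97.04 at 7.73 kb) and Rpl26 (74.8 at 2.51 kb) made up most of the rest. The peak of Rps24 lay at an end of Polr3a, which encodes a subunit of RNA polymerase III.

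Genes just beyond 10 kb included Rps14 at 10.4 kb, Rpl30 at 13.2 kb, Rps19 at 14.5 kb and Rplp2 at 14.8 kb. Rps19 is the gene most often mutated in Diamond-Blackfan anaemia, in which translation of the related factor GATA1 is lowered, and its nearest peak scored 182 but was only 279 bp wide. Rpl5 and Rpl11, whose products bind MDM2 when ribosome assembly fails, had their nearest peaks at 29.3 and 30.6 kb. Copies with restricted expression named here lay far from any peak. The nearest one was 200 kb from Rpl3l, the striated muscle form of Rpl3, 426 kb from Rpl39l and 1111 kb from Rpl10l. In all, 15 of the 80 genes were over 100 kb from a peak. A peak within 100 kb was present for 81.25% of the ribosomal protein genes, beside 69.7% of other protein coding genes.

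Chromosomes contributed unevenly. On chromosome 10, where 17.3% of all protein coding genes had a peak within 1 kb, 3 of 5 ribosomal protein genes did (Rps12, Rps15 and Rps26). On chromosome 11 it was 3 of 7 (Rpl23, Rpl27 and Rps27a) beside 11.6%, on chromosome 17 also 3 of 7 (Rpl10a, Rps28 and Rpl36) beside 10.5%, and on chromosome 7 it was 4 of 14 beside 7.54%. The exact 95% intervals of these shares were wide and overlapped, with 14.7% to 94.7% on chromosome 10 and 8.39% to 58.1% on chromosome 7. Without chromosome 10, 16 of 75 genes had a peak within 1 kb, or 21.3%, beside 9.05% of the other protein coding genes left.

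Gene length and promoter composition moved with the share of genes with a peak. The ribosomal protein genes had a median length of 3170 bp, and the other protein coding genes of 17268 bp. Among all protein coding genes of at most 10 kb, 7.67% had a peak within 1 kb and 18.3% within 10 kb, while the 79 ribosomal protein genes of that length had 22.8% and 39.2%. Promoter windows of 300 bases (250 before and 50 after the start) were in the RefSeq table for 60 of the 80 genes and for 17492 protein coding genes in all. A window was called CpG-rich at a GC content of at least 55% and an observed to expected CpG ratio of at least 0.6. Such windows were held by 33 of the 60 ribosomal protein genes and by 41.3% of all genes with a window. Among all genes with one, 14.7% had a peak within 1 kb, and among the 33 ribosomal protein genes 8 did, or 24.2% (11.1% to 42.3%). Within 10 kb these shares were 35.2% and 42.4%. The part of promoter composition in the higher share was not tested.

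The letters GATA were found on either strand in 10 of the 12 windows with a peak within 1 kb of the start, Rps27l and Rpl18 included (exact 95% interval of the share 51.6% to 97.9%). They were in 24 of 44 windows of ribosomal protein genes with no peak within 1 kb of the start or of either gene end, or 54.5%, and in 54.0% of all windows. In the printed stretches they stood 57 bases before the start of Rps15, 217 before that of Rpl24, 191 and 158 before that of Rps26, 244 and 165 before that of Rpl23 and 120 before that of Rpl10a. The last of these lay outside the peak, which held only the 115 bases next to the start of Rpl10a. The stretches of Rpl27 and Rps12 held none. Longer forms that contain GATA were rarer. Among the 60 ribosomal protein windows AGATAA was present in 4, or 6.67%, beside 9.94% of all windows. TGATAA was in 5 (8.33% beside 7.81%), AGATAG in 6 (10% beside 8.07%) and TGATAG in 2 (3.33% beside 6.81%). At least 1 of these forms was present in 3 of the 12 windows with a peak at the start and in 10 of the 44 without a peak, beside 26.7% of all windows. The ETS core CCGGAA was more frequent in ribosomal protein windows than in all windows, at 48.3% beside 19.1%, and stood in 5 of the 12 with a peak at the start and 24 of the 44 without a peak. GGGCGG, bound by the SP family, was in 56.7% beside 46.3%, AAGATGGC, bound by YY1, in 8.33% beside 3.21%, and the E box CAGCTG, bound by myogenic factors, in 6.67% beside 15.1%. CACGTG was in 8.33% beside 7.91% and TATAAA in 11.7% beside 13.3%. All were searched on both strands, and a match is a description of the letters only.

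Other genes of the translation machinery had shares within 1 kb close to that of the ribosomal protein genes. Of the 78 mitochondrial ribosomal protein genes, 16 had a peak, or 20.5% (12.2% to 31.2%), with Mrps36 (score 153), Mrpl34 (123) and Mrpl52 (118) highest. Of 40 genes listed as initiation factors, elongation factors or further genes with a 5′ pyrimidine tract in their messenger RNA, 9 had a peak, or 22.5%. They were led by the elongation factor genes Eef2 (167) and Eef1a1 (149) and by Eif5b (145). That list was set by gene symbol, and the tract was not looked for. Of 38 ribosome biogenesis factors, 8 had one, or 21.1%, with Nolc1 (138), Utp3 (115) and Nop56 (97.04) highest. Of 22 genes of RNA polymerases I and III and their factors, 5 had one, or 22.7%, led by Polr3a (124), Brf1 (104) and Polr3b (70.7). Of 22 genes that control ribosomal protein genes or translation, 6 had one, or 27.3%, led by Tsc1 (130), Gabpa (109) and Eif4ebp1 (107). Among 8 ribosomal protein genes and copies whose symbols the pattern missed, among them Rpsa and Fau, only Rpl7l1 had a peak (110). The intervals of these lists overlap that of the ribosomal protein genes, and no test compared them. Within 10 kb the RNA polymerase list had the highest share, 13 of 22 genes or 59.1% (36.4% to 79.3%). The other related lists plotted had 35.9% to 45.5% within 10 kb, beside 26.2% of all protein coding genes.

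**Figure D4:**
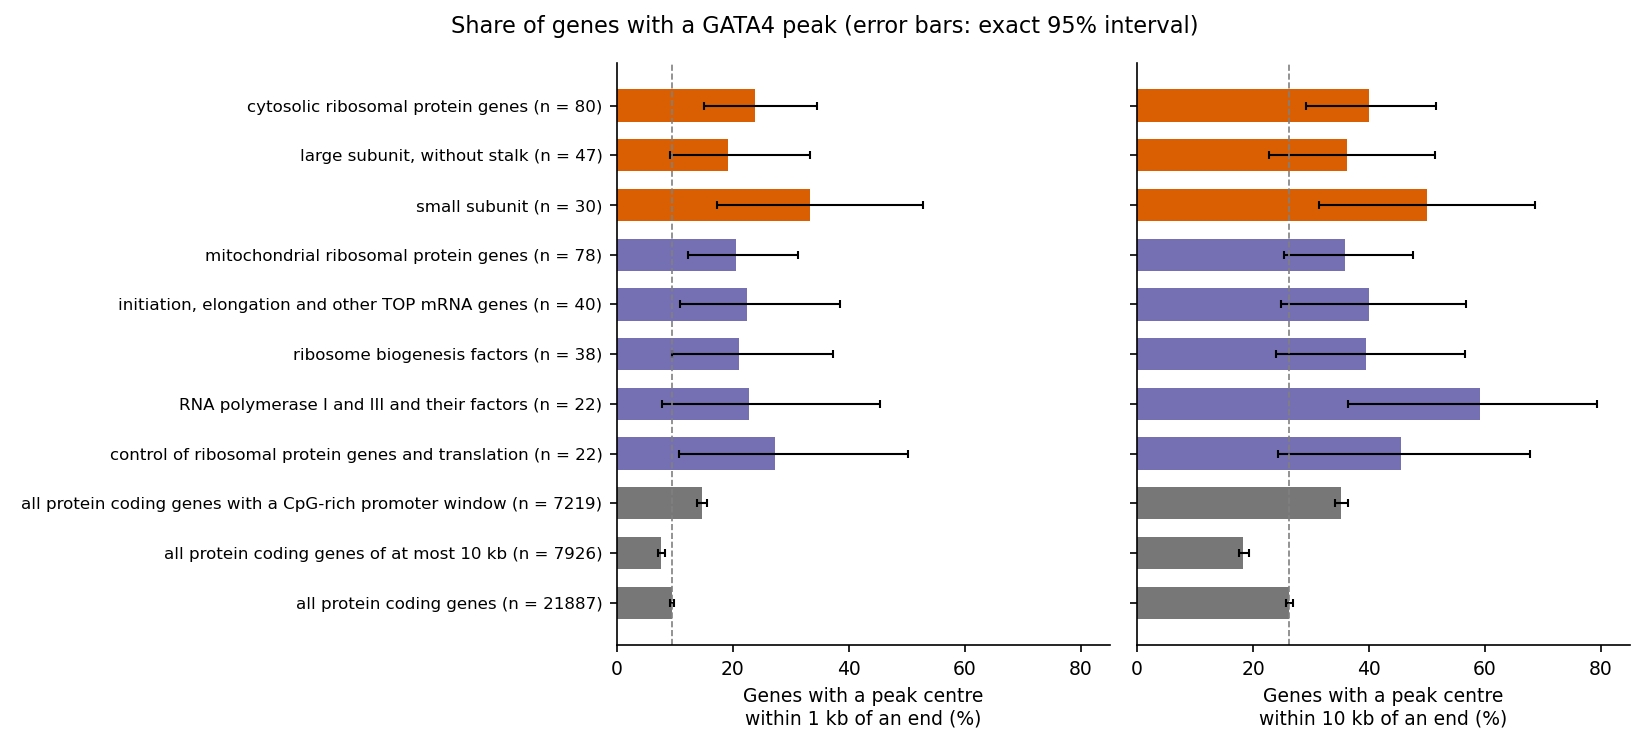
Share of genes (horizontal axes, percent) with a GATA4 peak centre within 1 kb (left) and within 10 kb (right) of an end, for the ribosomal protein genes and their subunits, related lists and sets of all protein coding genes. Error bars are exact 95% intervals for counting error, and the dashed lines mark all protein coding genes, at 9.47% and 26.2%. Within 1 kb the 5 related lists plotted lie between 20.5% and 27.3%, beside 23.8% for the ribosomal protein genes.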

How the data were processed

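The submitters' processing notes name CASAVA 1.8, Bowtie and the genome build GRCm38 (mm10), and the header of the peak list names MACS in Galaxy. The authors deposited 1 peak list with a MACS score per peak. The sources used here do not state how MACS was set, how duplicates were treated or whether IgG served as its control. Peak starts were converted to 1-based positions. Genes came from a RefSeq table of GRCm38.p6, and strand and starts of transcription from a RefSeq promoter table that held 60 of the 80 genes. Where several starts were listed, the outermost was used. Peaks were assigned by their centre with Python 3.11.15, pandas and scipy, and the assignment was tested on simulated peaks. The genes and lists were chosen with earlier results of these data known. The genes with a peak within 1 kb were named, then by fixed rule the highest scores within 10 kb, the genes just outside each window, the top 3 of each related list, copies and a few well-known genes. Values of a few single genes are counted in the totals but not reported here. Reads can map both to ribosomal protein genes and to their pseudogenes, and the sources used here do not state how such reads were divided.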

Additional observations from a re-analysis of the deposited data

How the results depend on the processing

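The ribosomal protein genes kept a higher share than other protein coding genes under every alternative run, by 9.63 to 15.3 percentage points within 1 kb, except 5.63 points among peaks above the median score, and by 3.47 to 21.1 points within 10 kb. The differences without an alternative were 14.3 and 13.8 points. The count of 19 genes within 1 kb became 12 of 60 with only starts of transcription, where fewer genes could be counted. Genes with the peak only at the far end also dropped out there, while Rps27l and Rpl18 were added. Among peaks above the median score the count within 1 kb was 7 of 80. The count of 32 genes within 10 kb became 56 within 50 kb, or 70.0%, beside 56.0% of all protein coding genes. It was 13 of 80 among peaks above the median score, where the share was 16.2% beside 12.8% of other genes. It was 20 of 80 when a peak counted only for the gene with the nearest end. That share was 5.62 points above the 19.4% of other genes. Much of the wider count thus came from peaks nearer to other genes. The median score of the best peak within 1 kb, 86.8, ran from 78.8 to 96.2 over its alternatives. Sets of short genes, of CpG-rich promoters and a set with 5 copies left out and 4 ribosomal protein genes outside the pattern added were chosen after seeing the data. No paired analysis was possible because each antibody had 1 library and no result came from a test.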

Other observations

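Ribosomal protein genes have many processed pseudogenes, copies of the messenger RNA that lack the promoter. Of 305 pseudogenes named after these genes, 3 had a peak within 1 kb, or 0.984% (exact 95% interval 0.203% to 2.85%), beside 1.48% of 10304 other pseudogenes. They included Rpl17-ps4 (score 124 at 822 bp) and Rpl21-ps8 (155 at 525 bp). Within 10 kb, 37 had a peak, or 12.1% (8.69% to 16.3%), beside 8.99%. Pseudogenes were sorted by symbol only, so any copies of these genes under other symbols are counted among the others. Named pseudogenes were annotated for 61 of the 80 genes and for 15 of the 19 with a peak within 1 kb, and Rpl31 and Rps12 had 23 each.

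Of the 80 genes, 28 held at least 1 annotated snoRNA. Of these hosts 5 had a peak within 1 kb, or 17.9%, among them Rpl3, Rpl13a, Rpl23 and Rps12. Of the 52 genes without a snoRNA, 14 had one, or 26.9%. Rpl4, with 5 snoRNAs, was 55.4 kb from its nearest peak.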
